A study of Mus musculus with 6 samples.

Results

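A group of 10 cytokine genes that are commonly counted among the secreted signals of senescent cells were followed through the cell types of aged mouse lung: Il1a, Il1b, Il1rn, Il18, Il6, Lif, Tnf, Csf1, Csf2 and Mif. They were chosen by name, with earlier results of these data known, and all 10 were present among the 31054 features of the single-cell count matrices. Lungs of male mice of 21 months were compared, 3 labelled p16-DTR (C57BL/6, p16-CreERT2/R26-LSL-DTR) and 3 labelled control (C57BL/6, p16-CreERT2), with each library taken as 1 mouse. In both groups the p16 promoter drives a tamoxifen-activated Cre recombinase, and both groups were given tamoxifen for 5 days, left for 2 weeks, given diphtheria toxin for 5 days and left to recover for another 2 weeks. The diphtheria toxin receptor allele, which Cre switches on, is carried by the p16-DTR mice alone, so the design asks how the aged lung differs after toxin has reached cells in which the p16 promoter was active. Each library was loaded with 20000 sorted CD45- cells and 9000 CD45+ cells, so the make-up of a library is not that of the lung.

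Senescent cells stop dividing and can release a mixture of cytokines, growth factors and proteases. In that mixture interleukin 1 alpha acts early and locally: it is active as a precursor, sits at the cell surface, and signals through the interleukin 1 receptor to NF-kB and C/EBP factors, which in turn raise Il6 and other cytokine genes. Interleukin 1 beta and interleukin 18 are made as inactive precursors that caspase-1 cuts in an inflammasome, and the product of Il1rn blocks the interleukin 1 receptor. In the lung, the factor encoded by Csf2 lets alveolar macrophages mature and clear surfactant, and that encoded by Csf1 keeps monocytes and macrophages alive.

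Cdkn2a, the gene of p16 (chromosome 4, 89274471 to 89294653 in GRCm38), was measured first as a check of the labels. Over all retained cells it stood at 6.81, 8.47 and 7.25 UMIs per 1e6 UMIs (CPM below) in the p16-DTR-labelled libraries and at 1.20, 2.57 and 2.68 in the controls. It was thus higher, not lower, in all 3 p16-DTR-labelled libraries (edgeR log2 difference 1.86, SE 0.30, adjusted p 0.128), and it was higher in 13 of 13 cell types in which it could be tested, with an edgeR call in 8. A type could pass the filter on low counts through the p16-DTR-labelled libraries alone, so the 13 of 13 adds no separate support for the direction. Reads of the deposited tdTomato entry were found only in the p16-DTR-labelled libraries (77, 65 and 83 UMIs against 0, 0 and 0). Directions below therefore hold for the libraries as labelled, and the 3' counts do not separate the p16 transcript from the other transcripts of Cdkn2a. The libraries held 13482 to 17332 barcodes with 254200305 to 344421685 UMIs, and 59 to 94 barcode sequences were shared by a pair of libraries. After filtering, 85386 cells were retained, of which 67257 passed a marker gate for 1 of 33 cell types and 19.91% to 22.2% per library passed none. A type is named here for the cells that passed its gate. The median cell of each type had a UMI of at least 4 of its own markers, and of up to 4 markers of another type's list.

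In GRCm38, Il1a (chromosome 2, 129299610 to 129309972) and Il1b (chromosome 2, 129364570 to 129371139) lie on the minus strand with 54597 bases and 0 protein-coding genes between them. Il1rn lies elsewhere on chromosome 2 (24336853 to 24351494). Il18 is on chromosome 9 (50554827 to 50581840), Il6 on chromosome 5 (30013114 to 30019981), and Lif and Csf2 are both on chromosome 11 (4257557 to 4272514 and 54247271 to 54249667). Tnf is on chromosome 17 (35199381 to 35202007), Csf1 on chromosome 3 (107741048 to 107760469) and Mif on chromosome 10 (75859353 to 75860240). All 10 are protein-coding genes. Annotated genes on the opposite strand overlap Il1a (Gm14023), Il1b (Il1bos), Csf2 (Gm12223) and Il18 (Bco2 and Tex12), and whether reads were counted by strand is not given in the sources used here.

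The promoters of Il1a, Il1b and Il6 are shown because these 3 genes led in different cells (aerocytes, neutrophils, and basophils with adventitial fibroblasts). Each is the 250 bases before the RefSeq start in GRCm38.p6, written 5′ to 3′ on the strand of the gene. Capitals mark matches to 1 of 4 motifs on either strand: the kB motif, the AP-1 motif TGANTCA, the C/EBP motif TTGCNNAA and the TATA motif TATAAA.
Il6 (chr5:30012864-30013113, plus strand): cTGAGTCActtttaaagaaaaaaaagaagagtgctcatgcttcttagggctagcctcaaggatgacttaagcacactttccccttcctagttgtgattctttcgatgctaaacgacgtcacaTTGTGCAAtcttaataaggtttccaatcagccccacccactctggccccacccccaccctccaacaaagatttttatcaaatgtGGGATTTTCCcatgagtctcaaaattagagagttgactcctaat
Il1a (chr2:129309973-129310222, minus strand): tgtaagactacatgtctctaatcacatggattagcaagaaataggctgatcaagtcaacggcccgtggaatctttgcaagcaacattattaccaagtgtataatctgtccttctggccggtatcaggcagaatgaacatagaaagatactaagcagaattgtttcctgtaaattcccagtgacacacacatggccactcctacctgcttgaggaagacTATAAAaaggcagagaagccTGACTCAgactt
Il1b (chr2:129371140-129371389, minus strand): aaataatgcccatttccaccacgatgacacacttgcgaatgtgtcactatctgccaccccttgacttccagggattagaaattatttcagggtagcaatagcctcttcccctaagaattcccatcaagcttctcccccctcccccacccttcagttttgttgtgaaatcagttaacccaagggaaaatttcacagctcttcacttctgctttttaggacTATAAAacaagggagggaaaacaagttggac
The Il6 window held a kB match 44 bases before the start, a C/EBP match at 128 bases and an AP-1 match at 249 bases. The Il1a window held a TATA match at 32 bases and an AP-1 match at 12 bases, and the Il1b window held a TATA match at 31 bases. Among all 10 genes, a kB match was found for 3, an AP-1 match for 4, a C/EBP match for 2 and a TATA match for 4. Of 32851 promoter windows of that length, 7.25% held a kB match, 6.75% an AP-1 match, 9.56% a C/EBP match and 12.4% a TATA match. No overlap between motifs was found in the printed windows, and a match describes letters, not binding.

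**Figure D1:**
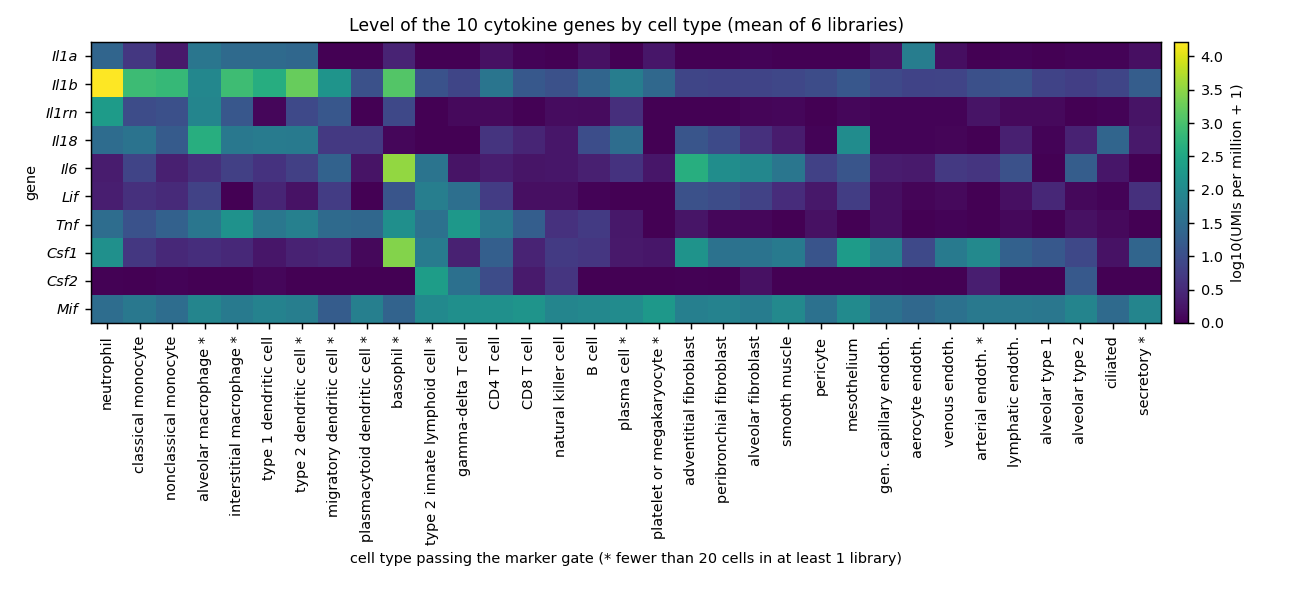
Mean level of each gene (rows) in each cell type (columns) as log10(CPM + 1) over 6 libraries. Il1b and Il1rn are brightest in neutrophils, Il6 and Csf1 in basophils, Il1a in aerocytes, Csf2 in type 2 innate lymphoid cells and Il18 in alveolar macrophages, whereas Mif is above 10 in all 22 types with at least 20 cells per library.

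How widely a gene was found among the cell types differed from gene to gene. Among the 22 types with at least 20 cells in every library, Il1rn reached 10 CPM in 1 type, Lif in 1, Csf2 in 2, Il1a in 3, Il6, Tnf and Il18 in 7 each, Il1b in 10 and Csf1 in 12, while Mif did so in all 22. The Il1b count includes mesothelium (12.9 CPM), lymphatic endothelium (11.05) and natural killer cells (10.06). Their ratios of Il1b to S100a9, a gene abundant in neutrophils, were 0.147, 0.466 and 0.470, against 0.331 in neutrophils. Il1b in these types is therefore not read here as their own expression. In the other counted types the ratio ran from 0.723 in CD8 T cells to 39.2 in classical monocytes. These are ratios of means, and Il1b varied widely between libraries in some lymphocytes. It ran from 2.89 to 27.3 CPM in CD8 T cells, 4.53 to 58.6 in B cells and 4.97 to 73.0 in CD4 T cells. Whether Il1b there was their own expression was not tested. The leading type lay 21.1-fold above the next for Il1b and 20.8-fold above it for Il1rn, against 1.16-fold for Mif. For Il6, Il1b, Il1rn, Tnf and Il18 the library values of the leading and the next type did not overlap. For Il1a, Csf1, Csf2, Lif and Mif they did.

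The comparison of the groups gave no call for any of the 10 genes by edgeR's quasi-likelihood test with Benjamini-Hochberg adjustment over all genes of a type. Of 220 gene and type pairs, 107 passed the filter on low counts and 113 did not. None of the 107 was called by edgeR, where 0.618% of all genes tested in these 22 types were; the lowest edgeR adjusted p was 0.0872. At an unadjusted p under 0.05 there were 20 of 107 pairs (18.7%), against 12.2% of all genes. As the 10 genes were chosen with earlier results of these data known, nothing is read from that excess. Group values did not overlap in 13 of the 107 pairs, and they did not overlap in 17.7% of all genes. Differences went up in 58 pairs and down in 49, with a median log2 difference of 0.04 and a range from -1.51 to 2.51. The median over all genes was -3.6e-05. Of the 107 pairs, 18 were of Il1b, 12 up and 6 down. Those in types whose Il1b is not read here as their own expression all went up, for example general capillary endothelium (0.47) and alveolar fibroblasts (0.39). The excess of 58 over 49 is therefore not read as a direction of the 10 genes. With DESeq2, which called 2.27% of all genes, 1 of the pairs was called, Csf1 in alveolar fibroblasts. Without the filter on low counts, edgeR called 7 of 198 pairs (3.54%), where it called 1.8% of all genes, and 3 of the 7 were pairs that the filter removes. Of these 3, Il6 in pericytes had 51 UMIs in control 3 and 0 to 4 in the other libraries, and Il6 in venous endothelium had 31 in the library labelled p16-DTR 3 and 1 to 9 elsewhere. A further 28 pairs in 8 rarer types gave 0 calls by edgeR and 0 by DESeq2, with 1 at an unadjusted p under 0.05. Only 0.00457% of all genes were called there by edgeR and 0.0523% by DESeq2, so nothing about the cytokines is read from those 0 calls.

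Summed over all retained cells, where fewer cells of a type and less RNA per cell cannot be told apart, edgeR again called none of the 10, as it called 0% of all genes (4897 of 21419 had an unadjusted p under 0.05). Of the 10, 2 had an unadjusted p under 0.05, namely Tnf and Mif. The median log2 difference of the 10 was 0.25, with 8 higher, against -0.01 over all genes. When every tested type was given equal weight, the log2 ratio of mean CPM had the opposite sign for 7 of the 10. That ratio lacks edgeR's library scaling and leaves out the rarer types and the cells that passed no gate. For Il1a the unscaled means over all cells already lay in that direction (4.41 against 4.48). Tnf alone had groups that did not overlap, as 30.8% of all genes had, and DESeq2, which called 12.4% of all genes, called Tnf alone.

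**Figure D2:**
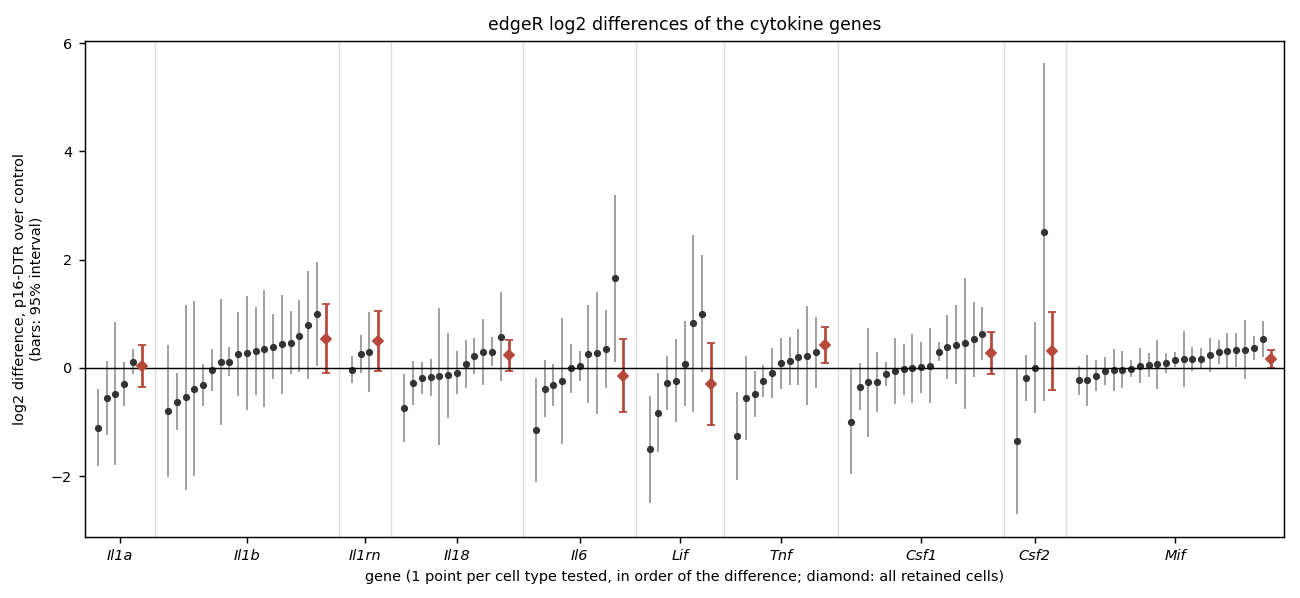
edgeR log2 difference, p16-DTR-labelled libraries over control, for each gene in each tested cell type (points, in order of size, with 95% intervals) and over all retained cells (diamonds). Most intervals cover 0, and the widest, near the top, is that of Csf2 in alveolar fibroblasts at 2.51.

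Il1a had its highest mean level in aerocytes. Aerocytes, the large capillary cells that face the air and exchange gas, had 56.2, 70.2 and 56.5 CPM in the p16-DTR-labelled libraries and 65.6, 54.8 and 55.0 in the controls, from 360 to 863 UMIs per library. The groups overlapped, with 1 high library in each, and the means were 60.9 ± 7.998 and 58.5 ± 6.18 (SD, n = 3 each). The edgeR log2 difference was 0.11 (95% interval -0.12 to 0.35, adjusted p 0.639). Aerocytes supplied 49.6% of a library's Il1a UMIs on average (28.8% to 63.0%) while making up 3.40% of its cells. Cells that passed no gate held 22.1% (12.7% to 35.0%), and in the library labelled p16-DTR 3 they exceeded aerocytes (35.0% against 28.8%). After each cell was thinned to 5000 UMIs, 21.5% of aerocytes had an Il1a UMI (44.0% unthinned, median depth 21354.5 UMIs), whereas 0 of 1225 adventitial fibroblasts did, which allows a share of up to 0.245%. The top 10% of aerocytes held 47.3% to 56.7% of the Il1a UMIs of their type.

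Myeloid cells came next. Alveolar macrophages, with 9 to 16 cells per library, had a mean Il1a level of 43.7, type 1 dendritic cells 27.9, interstitial macrophages 27.6, type 2 dendritic cells 24.6 and neutrophils 23.2. Alveolar macrophages ranged from 26.7 to 79.7 over libraries, and in control 1 they exceeded aerocytes (79.7 against 65.6). Type 1 dendritic cells ranged from 7.45 to 56.7 over libraries, interstitial macrophages from 1.94 to 63.96 and type 2 dendritic cells from 0 to 56.2, so the order of these types is not firm. Classical monocytes, the inflammatory monocytes that enter tissue from blood, had 2.48, 2.96 and 1.89 in the p16-DTR-labelled libraries and 6.40, 3.12 and 6.60 in the controls. All 3 control values lay above the other 3, and the edgeR log2 difference of -1.11 (SE 0.31) did not pass the threshold (adjusted p 0.311).

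Since Cdkn2a was also detected in aerocytes, Il1a was compared between aerocytes with and without a Cdkn2a UMI, a split made after the data had been seen. At 5000 UMIs per cell, 27 to 62 aerocytes per library had one, 270 in all. The Il1a level was 62.3 ± 18.6 CPM in them and 58.3 ± 6.25 in the other aerocytes (SD, n = 6 libraries), higher in 4 of 6 libraries (exact two-sided paired permutation p 0.594, adjusted over 10 genes 1). Csf1, which was 12.6 ± 6.76 against 6.39 ± 1.37 and higher in 5 of 6 libraries, had the lowest exact permutation p of the 10 genes (0.0938, adjusted 0.938), on 16 UMIs in the cells with Cdkn2a. The smallest p that 6 pairs allow is 0.03125.

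Il1b was foremost a neutrophil transcript. Neutrophils, short-lived phagocytes that arrive from blood, had 16437, 17067 and 18048 CPM in the p16-DTR-labelled libraries and 16010, 14605 and 17296 in the controls. These values overlapped, and the edgeR log2 difference was 0.11 (95% interval -0.15 to 0.38, adjusted p 0.878). After thinning 99.8% of neutrophils had an Il1b UMI, and the top 10% of them held only 17.0% to 19.0% of the transcript, so it was spread over most of the cells.

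Antigen-presenting cells, basophils and monocytes formed a second tier for Il1b. Type 2 dendritic cells had a mean of 1724, basophils 1234, interstitial macrophages 805, classical monocytes 787 and nonclassical monocytes 675. In basophils the groups overlapped, at 1277, 1920 and 601 against 1857, 1193 and 559. Type 1 dendritic cells had 491, 307 and 203 in the p16-DTR-labelled libraries and 540, 452 and 572 in the controls; the groups overlapped at 452 to 491, and the edgeR log2 difference was -0.63 (SE 0.24, adjusted p 0.599). In migratory dendritic cells, at 5 to 12 cells per library, Il1b was 25.9, 122.5 and 52.7 against 250.7, 132.9 and 334.4. These groups did not overlap, and the edgeR log2 difference of -1.89 (SE 0.49) was not called (adjusted p 0.455).

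At the low end, Il1b was read beside S100a9, which encodes a calgranulin abundant in neutrophils. The ratio of Il1b to S100a9 was 0.331 in neutrophils and close to that in most structural types, for example 0.332 in alveolar type 2 cells, 0.371 in aerocytes, 0.402 in general capillary endothelium and 0.427 in alveolar fibroblasts. Levels at such a ratio are not read here as Il1b expression of those types. The ratio was far higher in type 2 dendritic cells (120), interstitial macrophages (60.8), basophils (43.1), classical monocytes (39.2) and nonclassical monocytes (20.5). General capillary endothelium, for instance, had 9.78, 6.85 and 9.07 CPM of Il1b in the p16-DTR-labelled libraries and 9.28, 4.61 and 5.41 in the controls, and its S100a9 ran 28.01, 13.9 and 17.0 against 27.5, 11.7 and 13.7. The first library of each group was the highest for both genes.

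**Figure D3:**
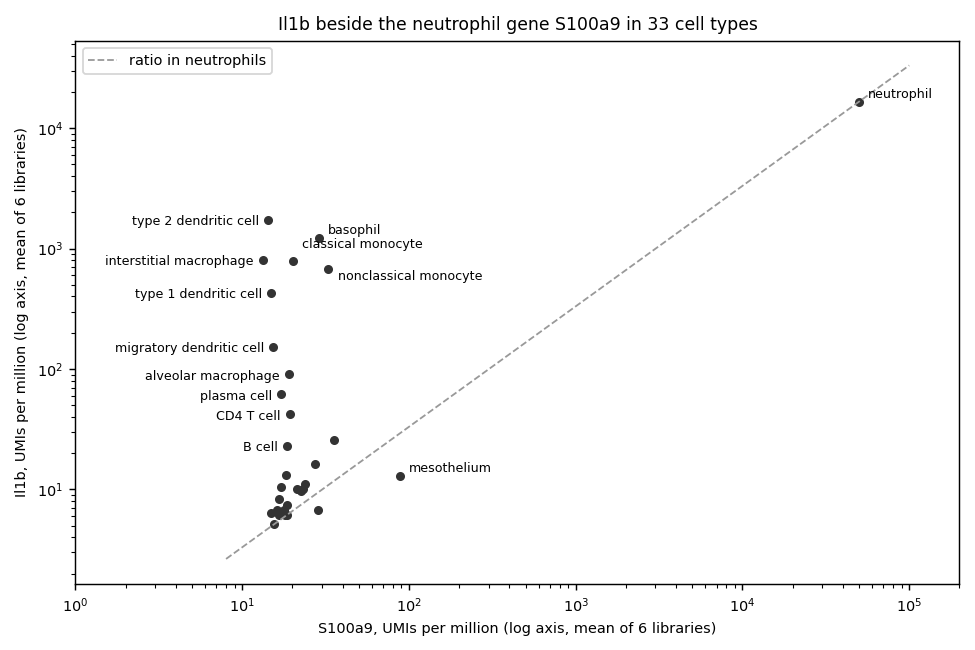
Il1b against S100a9 in 33 cell types, both in CPM on log axes, as means of 6 libraries, with the dashed line at the neutrophil ratio of 0.331. Structural types cluster on the line near its lower end, and dendritic cells, macrophages, monocytes and basophils stand above it.

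Over all retained cells Il1b was 806, 525 and 719 CPM in the p16-DTR-labelled libraries and 670, 386 and 406 in the controls. The groups overlapped, since control 1 exceeded the library labelled p16-DTR 2, and the edgeR log2 difference was 0.54 (95% interval -0.10 to 1.18, adjusted p 0.270). Neutrophils supplied 58.8% of the Il1b UMIs and made up 5.94%, 3.78% and 4.15% of cells in the p16-DTR-labelled libraries and 4.13%, 3.21% and 2.24% in the controls. Cells that passed no gate held another 29.1% (23.6% to 37.3%). A cluster of 1049 cells held only 51 that passed a gate, 86.3% of them as neutrophils, and the Il1b of its ungated cells was not measured apart. With the gated neutrophils left out, the levels were 281, 209 and 276 against 318, 168 and 198, and the log2 ratio of means was 0.17.

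Il1rn, whose product blocks the interleukin 1 receptor, followed Il1b across cell types (Pearson r 0.896 over 22 types, which share libraries and depth). Neutrophils had 185, 232 and 189 CPM in the p16-DTR-labelled libraries and 219, 223 and 185 in the controls. The groups overlapped fully, and the edgeR log2 difference was -0.04 (95% interval -0.29 to 0.21, adjusted p 0.960). They supplied 58.3% of Il1rn UMIs, and alveolar macrophages had the next level, a mean of 82.1. Over all cells Il1rn was 9.57, 7.27 and 8.12 against 8.16, 5.57 and 4.64, values that overlapped (edgeR log2 difference 0.49, adjusted p 0.254). Among neutrophils 53.5% had an Il1rn UMI after thinning, while 0 of 181 alveolar type 1 cells did, which allows up to 1.66%.

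Il18 was highest in alveolar macrophages, the resident phagocytes of the air spaces. Their levels were 426, 425 and 425 CPM in the p16-DTR-labelled libraries and 373, 447 and 516 in the controls. The control values bracketed the others, and the edgeR log2 difference was -0.03 (95% interval -0.45 to 0.40, adjusted p 0.999). Mesothelium, the sheet that covers the lung, had 89.95, 88.1 and 120.0 against 107.6, 119.9 and 136.4, overlapping values with an edgeR log2 difference of -0.28 (SE 0.18, adjusted p 0.918). Type 1 dendritic cells had 57.4, 60.7 and 61.1 against 54.2, 57.3 and 48.0. In them the 3 p16-DTR-labelled libraries lay just above the controls, and the edgeR log2 difference was 0.22 (SE 0.15, adjusted p 0.799).

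Il18 over all cells, at 10.3, 9.80 and 10.3 against 10.4, 8.02 and 8.29, overlapped between groups (edgeR log2 difference 0.23, adjusted p 0.278). Classical monocytes were the named type that supplied most of it, 18.4% of UMIs, and had levels of 40.2, 49.8 and 39.5 against 39.7, 33.8 and 33.5. The edgeR log2 difference there was 0.30 (SE 0.12, adjusted p 0.399), with a small overlap of the groups.

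Among the named types, Il6 was split between a rare immune cell and the connective tissue. Basophils, blood granulocytes that release histamine and type 2 cytokines, had 4657, 3961 and 3142 CPM in the p16-DTR-labelled libraries and 3582, 4286 and 1130 in the controls. Control 3, with 9 basophils, was far below the other 5 libraries, and the edgeR log2 difference of 0.37 (SE 0.45, adjusted p 0.863) became -0.05 without it. The cells passing this gate in the library labelled p16-DTR 2 also held the mast cell genes Cma1, Mcpt4 and Tpsb2 (233, 351 and 283 CPM). In the library labelled p16-DTR 3 Cma1 stood at 42.1, and in the other 4 libraries all of these were at 0. Their part in the Il6 level was not tested.

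Adventitial fibroblasts, which lie around vessels and airways, had the highest Il6 level of the structural types, with 417, 474 and 425 CPM in the p16-DTR-labelled libraries and 438, 493 and 357 in the controls. These values overlapped, on 1772 to 5473 UMIs per library, with an edgeR log2 difference of 0.04 (95% interval -0.24 to 0.32, adjusted p 0.952). After thinning 49.0% of them had an Il6 UMI (66.2% unthinned), and 0 of 181 alveolar type 1 cells did, which allows up to 1.66%. The top 10% of adventitial fibroblasts held 45.9% to 52.6% of the Il6 UMIs of the type. Peribronchial fibroblasts followed at a mean of 115.4 CPM (edgeR log2 difference -0.01, adjusted p 0.988).

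Alveolar fibroblasts had 62.6, 90.7 and 85.6 CPM of Il6 in the p16-DTR-labelled libraries and 116, 76.9 and 107 in the controls. Of the 6 libraries, 2 controls were highest, and the groups overlapped (edgeR log2 difference -0.31, SE 0.17, adjusted p 0.326). They supplied 24.9%, 27.9% and 40.2% of the Il6 UMIs of the p16-DTR-labelled libraries and 44.5%, 32.1% and 48.5% of those of the controls, and adventitial fibroblasts supplied 15.3% on average. Basophils supplied 37.2%, 42.6% and 21.6% in the p16-DTR-labelled libraries and 6.89%, 26.1% and 1.12% in the controls, from 0.686%, 0.820% and 0.404% of cells against 0.293%, 0.487% and 0.060%. Basophils thus exceeded alveolar fibroblasts in p16-DTR-labelled libraries 1 and 2, and alveolar fibroblasts exceeded basophils in the other 4. Cells that passed no gate held another 22.2% of the Il6 UMIs on average (13.55% to 30.2%).

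Over all cells Il6 was 65.6, 77.2 and 42.7 against 94.5, 59.4 and 57.5, with overlap (edgeR log2 difference -0.14, 95% interval -0.81 to 0.52, adjusted p 0.770). Without basophils the levels were 41.4, 44.7 and 33.6 against 88.1, 44.1 and 56.9, and the log2 ratio of means was -0.66, still with overlap.

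**Figure D4:**
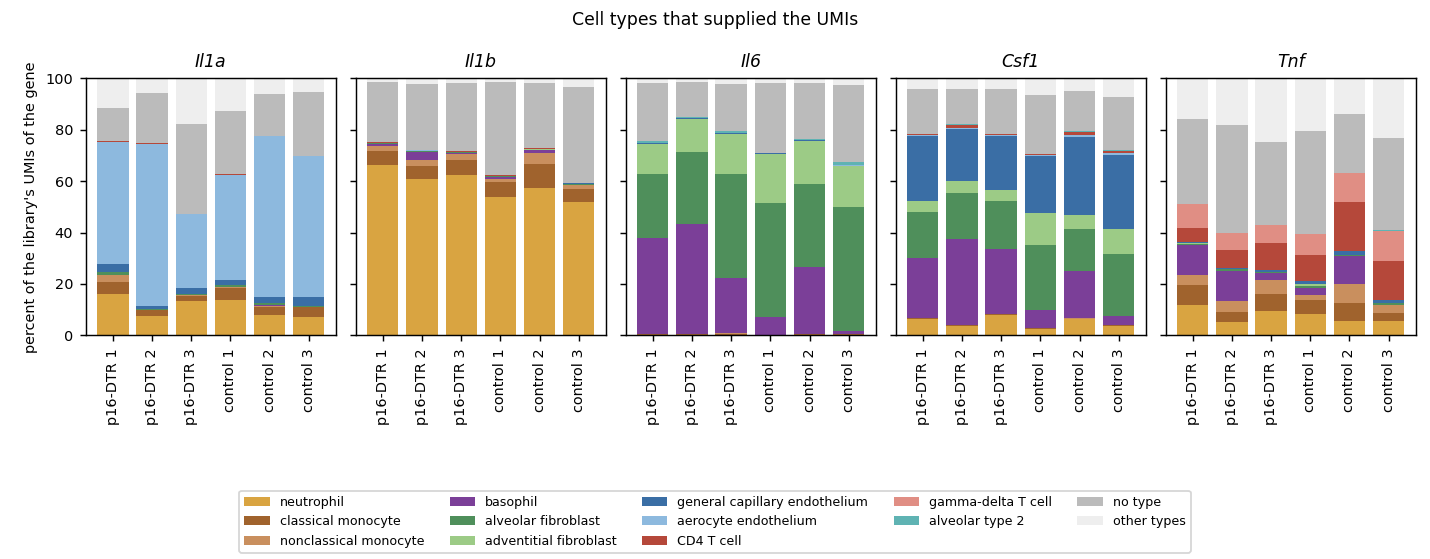
Share of each library's UMIs of Il1a, Il1b, Il6, Csf1 and Tnf (panels) supplied by each cell type (colours), in percent, with grey for cells that passed no gate. Basophils take 1.12% to 42.6% of Il6 by library, and neutrophils take 52.0% to 66.3% of Il1b.

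Lif, a relative of interleukin 6 that shares its signalling receptor chain, had its highest mean level, 62.0 CPM, in type 2 innate lymphoid cells. Those had 6.50, 174.4 and 0 CPM in the p16-DTR-labelled libraries and 27.3, 8.19 and 155.6 in the controls, from 4 to 16 cells per library, too few to test. Without the library labelled p16-DTR 2, where 1 cell held 22 of 42 UMIs, the mean was 39.5. Gamma-delta T cells had 19.0, 53.0 and 67.8 CPM in the p16-DTR-labelled libraries and 10.5, 15.4 and 38.9 in the controls. The groups overlapped on only 9 to 89 UMIs per library, and the edgeR log2 difference was 1.00 (SE 0.49, adjusted p 0.926). After thinning 8.85% of them had a Lif UMI (20.6% unthinned), and 0 of 4585 B cells did, which allows up to 0.0654%.

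In CD4 T cells the order was the other way round: 1.48, 4.12 and 1.46 CPM of Lif in the p16-DTR-labelled libraries and 7.12, 8.27 and 4.82 in the controls. The groups did not overlap, on 5 to 45 UMIs per library, and the edgeR log2 difference of -1.51 (SE 0.44) did not pass the threshold (adjusted p 0.105). In the same cells Il17a and Il23r, genes of the interleukin 17 type of CD4 T cell that were looked up after the data had been seen, had means of 19.8 against 308.6 CPM and 36.3 against 185.9. Their part in the Lif values was not tested. Alveolar fibroblasts supplied 43.9% of Lif UMIs. Over all cells Lif was 2.61, 4.01 and 2.61 against 5.69, 2.94 and 3.05, with overlap (edgeR log2 difference -0.30, adjusted p 0.575). Single cells carried some values: 1 basophil held 79 of the 114 basophil UMIs of Lif in the library labelled p16-DTR 2, and 1 peribronchial fibroblast held 46 of 53 in control 2.

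Tnf, the gene of tumour necrosis factor, was led by gamma-delta T cells, with 166, 150 and 168 CPM in the p16-DTR-labelled libraries and 219, 167 and 181 in the controls. The groups overlapped narrowly, and the edgeR log2 difference was -0.24 (SE 0.14, adjusted p 0.927). Interstitial macrophages followed at a mean of 139.2 and basophils at 126.8. Of gamma-delta T cells 42.9% had a Tnf UMI after thinning (65.0% unthinned), against 0 of 181 alveolar type 1 cells.

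CD4 T cells had 35.3, 30.9 and 53.4 CPM of Tnf in the p16-DTR-labelled libraries and 57.5, 58.3 and 49.7 in the controls. The library labelled p16-DTR 3 lay among the controls, and the edgeR log2 difference was -0.48 (SE 0.19, adjusted p 0.218). Without that library it was -0.77, and the edgeR adjusted p was 0.0348. Over all fits that left out 1 library, the log2 difference ran from -0.77 to -0.31 and the edgeR adjusted p from 0.0348 to 0.503. The share of all genes called in such fits is not given here, so nothing is read from the lowest value. Il17a in these cells was 54.3, 1.31 and 3.74 against 363, 342 and 221, and its part in the Tnf values was not tested. General capillary endothelium had only 6, 14 and 20 UMIs of Tnf against 25, 26 and 29. Its mean levels were 0.241 ± 0.111 and 0.607 ± 0.0521 CPM (SD, n = 3 each), without overlap, and the edgeR log2 difference of -1.26 (SE 0.35) was not called (adjusted p 0.0920).

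Summed over all cells, the direction of Tnf was opposite, at 8.28, 9.23 and 11.9 CPM in the p16-DTR-labelled libraries and 7.56, 7.19 and 7.91 in the controls. All 3 lay above the controls. The edgeR log2 difference was 0.43 (SE 0.14, adjusted p 0.168), and DESeq2 called it. With equal weight for each tested type the log2 ratio of means was -0.23. Without basophils the log2 ratio of means was 0.32, and the groups then overlapped.

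Csf1, the growth factor of the monocyte and macrophage lineage, was also highest in basophils. Their levels were 2652, 2587 and 4086 CPM in the p16-DTR-labelled libraries and 2195, 2590 and 2380 in the controls. The library labelled p16-DTR 3 stood apart and the other values overlapped or nearly met (edgeR log2 difference 0.39, SE 0.24, adjusted p 0.771). Mesothelium had 222, 239 and 151 against 171, 226 and 232, with full overlap (edgeR log2 difference -0.03, 95% interval -0.50 to 0.45, adjusted p 0.995). Thinned to 5000 UMIs, 60.8% of mesothelial cells had a Csf1 UMI (85.0% unthinned), and 0.370% of type 1 dendritic cells did.

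Alveolar fibroblasts, which support the gas-exchange surface, had 39.9, 48.1 and 43.4 CPM of Csf1 in the p16-DTR-labelled libraries and 38.3, 33.7 and 36.3 in the controls. All 3 values lay above the controls, and the means were 43.8 ± 4.09 and 36.1 ± 2.31 (SD, n = 3 each). The edgeR log2 difference of 0.29 (SE 0.08) had an adjusted p of 0.0872, the lowest of all 107 pairs, and DESeq2 gave an adjusted p of 0.0232. In general capillary endothelium the order was opposite, 74.2, 64.7 and 44.1 against 96.9, 75.3 and 67.8, with overlap (edgeR log2 difference -0.35, SE 0.19, adjusted p 0.302).

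Basophils supplied 23.5%, 33.5% and 25.4% of Csf1 UMIs in the p16-DTR-labelled libraries and 7.18%, 18.4% and 3.47% in the controls. General capillary cells supplied a mean of 21.99% and 27.1%, and alveolar fibroblasts 17.96% and 21.9%. By mean share, basophils were thus first of these 3 types in the p16-DTR-labelled libraries and last in the controls. Over all cells Csf1 was 59.1, 64.2 and 47.3 against 55.6, 51.0 and 39.2, with overlap (edgeR log2 difference 0.27, adjusted p 0.339). Without basophils it was 45.4, 43.1 and 35.4 against 51.7, 41.8 and 37.9, and the log2 ratio of means was -0.08.

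Csf2, the gene of granulocyte-macrophage colony-stimulating factor, was the sparsest of the group. Type 2 innate lymphoid cells, at 4 to 16 cells per library, had a mean of 225.0 CPM with a range from 17.4 to 681.6, and they were too few to test. In control 1, the highest, 1 of 4 cells held 23 of 25 UMIs, and without that library the mean was 133.7. In the library labelled p16-DTR 2, 1 cell held 58 of 94. Gamma-delta T cells had 49.2, 18.9 and 40.4 in the p16-DTR-labelled libraries and 21.1, 28.1 and 54.1 in the controls. These values overlapped fully, and the edgeR log2 difference was 0.0048 (95% interval -0.84 to 0.85, adjusted p 1.000).

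Alveolar type 2 cells, which make surfactant, were the main epithelial source of Csf2. They had 13.7, 12.99 and 11.8 CPM in the p16-DTR-labelled libraries and 19.2, 15.5 and 11.6 in the controls, with overlap (edgeR log2 difference -0.19, SE 0.19, adjusted p 0.769), and supplied 20.8% of Csf2 UMIs, while cells that passed no gate held 34.1% (19.2% to 46.3%). CD4 T cells had 6.82, 6.74 and 1.62 against 5.65, 9.19 and 20.9. In control 3, 91 of the 139 CD4 T cell UMIs came from 1 cell, and the edgeR log2 difference was -1.36 (SE 0.59, adjusted p 0.277). Alveolar fibroblasts gave the largest difference of all pairs, 2.51 (SE 1.35, edgeR adjusted p 0.325). It was -0.0033 without the library labelled p16-DTR 2 and 6.70 without control 1. There 1 cell of the library labelled p16-DTR 2, with 54920 UMIs in all, held 162 of the 163 Csf2 UMIs of its type and 28.4% of those of its library; 1 cell held all 47 in control 1. Over all cells Csf2 was 1.32, 2.17 and 1.14 against 1.19, 0.997 and 1.69, with overlap (edgeR log2 difference 0.30, adjusted p 0.549).

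Mif, a cytokine stored preformed in most cells that binds the receptor chain CD74, was the only one of the 10 found at 10 CPM or more in all 22 types, from 26.0 in aerocytes to 153.0 in CD8 T cells. CD8 T cells had 169, 159 and 159 in the p16-DTR-labelled libraries and 131, 143 and 157 in the controls. All 3 lay above the controls, by 2 CPM at the closest, and the edgeR log2 difference was 0.17 (SE 0.08, adjusted p 0.560). B cells had 90.7, 99.2 and 120.4 against 77.8, 85.0 and 84.2. Again the groups did not overlap, and the edgeR log2 difference was 0.37 (SE 0.10, adjusted p 0.248).

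Neutrophils had 32.6, 37.8 and 40.5 CPM of Mif against 28.2, 25.9 and 22.3, without overlap (edgeR log2 difference 0.53, SE 0.15, adjusted p 0.449). Of 22 tests of Mif, 15 gave a higher and 7 a lower value in the p16-DTR-labelled libraries. Over all genes, 121171 of 242376 tests were higher. An unadjusted edgeR p under 0.05 was found in 5 of the 22 (22.7%, against 12.2% of the tests of all genes). Groups did not overlap in 5 of the 22, and in 17.7% of all genes. Among the lower were natural killer cells (edgeR log2 difference -0.23, adjusted p 0.536). Interstitial macrophages, a rarer type, were lower without overlap (edgeR log2 difference -0.49, adjusted p 0.695). As the genes were chosen with earlier results of these data known, nothing is read from these counts. Over all cells Mif was 61.8, 57.7 and 66.1 against 56.1, 55.2 and 60.1, with overlap (edgeR log2 difference 0.17, SE 0.07, adjusted p 0.209). Processed copies of Mif exist in the mouse genome, and how reads that match them were counted is not given in the sources used here, so its level carries that uncertainty.

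**Figure D5:**
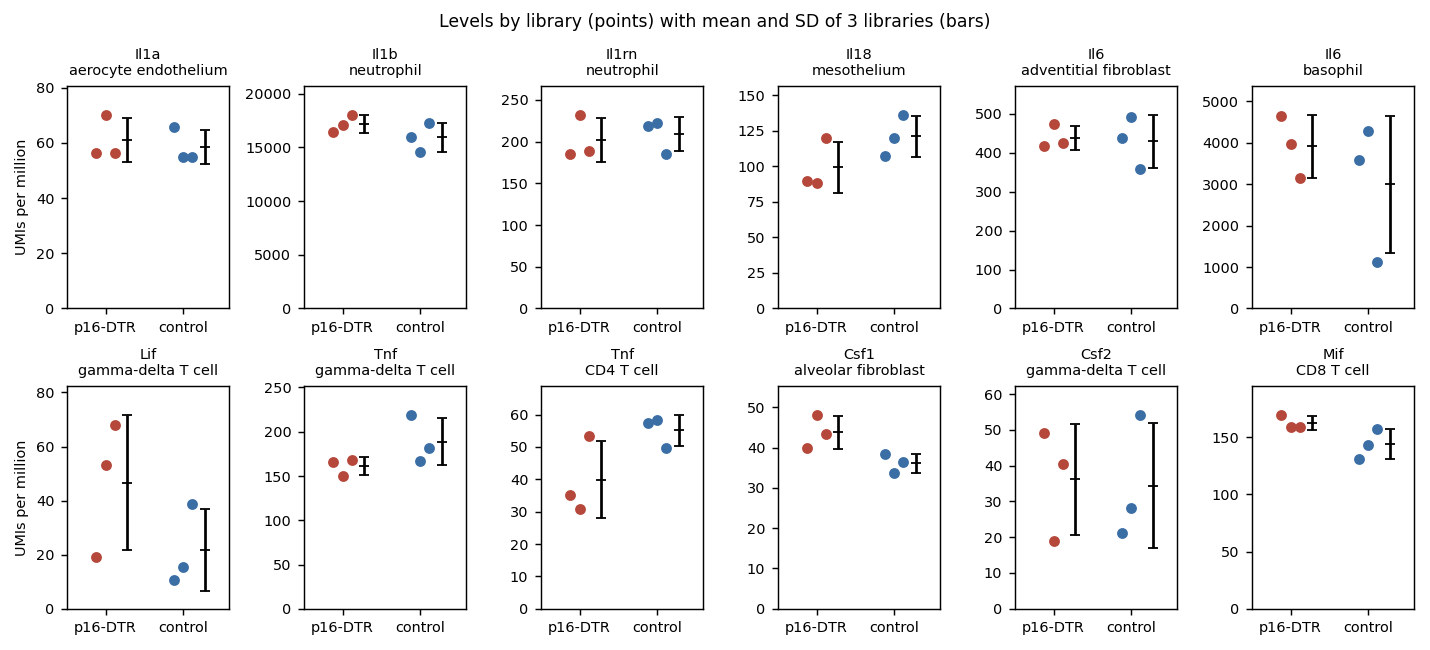
Level in CPM by library (points, 3 labelled p16-DTR and 3 control) with mean and SD (bars) for 12 pairs of gene and cell type. The groups overlap in most panels, and Csf1 in alveolar fibroblasts and Mif in CD8 T cells are panels in which all 3 p16-DTR-labelled libraries lie above the controls.

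The shares of cells with a UMI were compared between the groups as well. In 30 comparisons of thinned shares in the leading types, 5 reached an exact two-sided permutation p of 0.1, the smallest that 3 against 3 allows, and the lowest adjusted p was 0.5. An adjusted p cannot lie below 0.1 here, so no test of this kind could pass the threshold. For levels rather than shares, groups did not overlap in 17.7% of all genes. The count for shares over all genes is not given here, so nothing is read from the 5.

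Genes that receive, mature or respond to these signals were then examined from 3 lists. The lists were chosen with earlier results of these data known, so a share above that of all genes is not read as a result. Of 16 receptor and decoy genes, 6 were called once each by edgeR in 261 tests (2.30%, where 0.618% of all genes tested in the 22 types were called), 3 up and 3 down, with a median log2 difference of -0.01. In CD4 T cells, where 4.35% of all genes were called, Il1r1, the signalling receptor for both interleukin 1 forms, fell: it was 50.4, 9.92 and 19.7 CPM in the p16-DTR-labelled libraries and 171, 218 and 154 in the controls. The groups were far apart, with an edgeR log2 difference of -2.90 (SE 0.43, adjusted p 0.0101), and without the library labelled p16-DTR 3 the edgeR adjusted p was 0.0509.

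Il18r1, a chain of the interleukin 18 receptor, fell in the same cells (364, 225 and 438 against 607, 632.5 and 630; edgeR log2 difference -0.89, adjusted p 0.0451), and was called in 2 of 6 fits that left out 1 library, with an edgeR adjusted p of 0.117 without control 2. Genes of the interleukin 17 type of CD4 T cell were lower in the same libraries, Il17a as given above for Tnf. Il23r was 73.0, 10.3 and 25.7 against 180.5, 217.8 and 159.3. Whether the make-up of the CD4 T cells sets the values of the receptors, of Csf2 or of Casp1 (below) was not tested.

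Peribronchial fibroblasts, which lie beside the airways, were the other type with more than 1 receptor call, where 1.78% of all genes were called. Il1rap, the accessory chain of the interleukin 1 receptor, fell from 138.4 to 62.0 CPM (edgeR log2 difference -1.10, adjusted p 0.0219), and Il6ra, the interleukin 6 receptor, rose from 34.9 to 73.3 (1.12, edgeR adjusted p 0.0415). Csf2ra, a chain of the Csf2 receptor, rose in alveolar fibroblasts from 5.65 to 8.82 (edgeR log2 difference 0.66, adjusted p 0.0455), where 1.03% of genes were called. Without the library that mattered most, the edgeR adjusted p was 0.0756 for Il1rap (control 1), 0.142 for Il6ra (p16-DTR 2) and 0.150 for Csf2ra (p16-DTR 3).

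Cd74 rose in alveolar type 1 cells, where 0.589% of genes were called. It encodes the invariant chain of MHC class II, which also serves as a Mif receptor, and stood at 163, 436 and 99.9 CPM against 80.5, 73.3 and 69.5. The library labelled p16-DTR 2 was the highest by far. The edgeR log2 difference of 1.69 (adjusted p 0.0193) was 0.88 without that library, and the edgeR adjusted p was then 0.109. With types taken from clusters of cells the edgeR log2 difference was 0.71 (adjusted p 0.739). In the same 26 to 64 cells per library, the MHC class II gene H2-Aa was 3.25, 80.9 and 10.9 against 9.09, 9.16 and 9.03, and the alveolar type 2 gene Sftpc was 734, 1202 and 133 against 58.4, 126.7 and 822. Both were highest in that library, and their part in the Cd74 value was not tested.

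Of 11 genes for maturation and release, 3 were called in 191 tests (1.57%, against 0.618% of all genes). Casp1, the protease that matures interleukins 1 beta and 18, rose in CD4 T cells from 61.3 ± 2.98 to 90.4 ± 4.28 CPM (SD, n = 3 each; edgeR log2 difference 0.53, SE 0.07, adjusted p 0.00878) and was called in 6 of 6 fits that left out 1 library. In general capillary endothelium, where 1.43% of genes were called, Capn2, a calpain subunit that can cut the interleukin 1 alpha precursor, rose from 146.8 to 184.7 (edgeR log2 difference 0.37, adjusted p 0.0419). Pycard, the inflammasome adaptor, fell there from 11.3 to 7.496 (edgeR log2 difference -0.55, adjusted p 0.0474). Both were called in only 1 of 6 fits that left out 1 library, and without the library labelled p16-DTR 3 the edgeR adjusted p was 0.123 and 0.146.

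Among 14 response genes of interleukin 1, interleukin 6 and NF-kB signalling, 6 pairs fell and 0 rose in 259 tests (2.32%, against 0.618% of all genes). The median log2 difference was -0.11, with 161 tests lower, against a median of -3.6e-05 and 121205 of 242376 tests lower over all genes. An unadjusted p under 0.05 was found in 29.0% of the tests of the list and in 12.2% of those of all genes. As the list was chosen with earlier results of these data known, nothing is read from that excess. Socs3, the feedback inhibitor of interleukin 6 and Lif signalling, fell in natural killer cells from 72.7 to 38.4 CPM (edgeR log2 difference -0.99, adjusted p 0.0119) and in ciliated cells from 206.8 to 108.1 (edgeR log2 difference -0.91, adjusted p 0.0371). Of all genes 0.89% were called in natural killer cells and 0.058% in ciliated cells. Nfkbiz, an inducible NF-kB cofactor needed for Il6 transcription, fell in venous endothelium from 646 to 392 and in general capillary endothelium from 277 to 164 (edgeR log2 difference -0.72 in both, adjusted p 0.0337 and 0.0489). In venous endothelium 0.5% of genes were called. The edgeR adjusted p rose to 0.111 for Socs3 in natural killer cells without control 3 and to 0.220 in ciliated cells without control 1. For Nfkbiz it rose to 0.0895 in venous endothelium without control 1 and to 0.147 in general capillary endothelium without the library labelled p16-DTR 3.

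Stat3, the transcription factor activated by interleukin 6 and Lif, fell in lymphatic endothelium from 535 to 378 (edgeR log2 difference -0.51, adjusted p 0.0404), where 0.526% of genes were called. Zc3h12a, an RNase that degrades Il6 messenger RNA, fell in alveolar fibroblasts from 28.6 to 19.4 (edgeR log2 difference -0.54, adjusted p 0.0498). Without control 1 the edgeR adjusted p of Stat3 was 0.151, and without the library labelled p16-DTR 3 that of Zc3h12a was 0.157. Of the 15 list calls, Casp1 was the only one called in all 6 fits that left out 1 library, and without the library labelled p16-DTR 3 none of the 6 response calls passed. With types taken from clusters of cells, which named 20 of the 22 types but not venous endothelium, 2 response pairs were called by edgeR, where 0.563% of all genes were.

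The genes most like each cytokine across the 22 types are given by Pearson correlation of log2 levels over 14345 genes, as a description of types that share libraries and depth. Il1b was most like Nlrp3 (r 0.981), the sensor of an inflammasome, and Mybpc3 (0.979), and Il1rn was most like Csf3r (0.981), the neutrophil growth factor receptor, and A530064D06Rik (0.980). Csf3r is also a marker of the neutrophil gate, so its likeness is partly set by how those cells were picked. Tnf was most like Bcl2a1d (0.941) and Jaml (0.938), and Il6 most like Dpyd (0.937) and Epdr1 (0.920). Weaker likeness was found for Lif with Ankrd35 (0.846) and Eprs (0.814), Csf2 with Kcnk1 (0.841) and Arg1 (0.832), and Mif with Sesn3 (0.834) and Phgdh (0.825). Il18 was nearest to Basp1 (0.810) and Rab7b (0.806), Csf1 to Sulf1 (0.791) and Timp2 (0.783), and Il1a to Vps26a (0.760) and Rab7 (0.748).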

How the data were processed

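Whole lungs were digested with Liberase, sorted by CD45 and sequenced with 10x GEM-X 3' v4 chemistry. The authors deposited raw UMI counts per gene and barcode, made with Cell Ranger 8.0.1 on mm10 per the submitters' processing notes. Libraries were grouped by their labelled genotype. The genes and lists were chosen with earlier results of these data known.

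Barcodes with at least 500 UMIs, 300 genes and at most 15% mitochondrial UMIs were kept, and predicted doublets were left out (2 simulated doublets per cell, 30 principal components, 2000 genes, 0.4% of cells per 1000 barcodes). Cells were given a type by markers (at least 3 with a UMI and a lead of 2; 4 for mesothelium and platelets) within a lineage (at least 3 of 6). The markers were fixed and the scoring rule was set after the data were seen; 904 gated cells (1.34%) lay at the limit. Levels are CPM, UMIs per 1e6, of the counts summed per library and type.

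Counts were tested with edgeR 4.0.16 in R 4.3.3 (filterByExpr, TMM, quasi-likelihood test, group alone, Benjamini-Hochberg within a type at 0.05) in 22 types with at least 20 cells per library, and in 9 rarer types with at least 5. The rarer types, the neutrophil, mast cell and interleukin 17 genes, the levels with a type left out, the shares held by single cells and the Cdkn2a split were added after the data were seen. The titles number the samples of each group, and these are taken here as separate mice. On that reading p-values measure the spread between mice as sampled. Shares use cells thinned to 5000 UMIs, and limits from a count of 0 (3 counts) cover counting error only. Likeness used log2(level + 1). Genes named are the 10 cytokines, list genes called in at least 1 type (at most 8 per list) and the 2 most alike genes per cytokine. Alternatives were DESeq2 1.42.0, RLE factors, no filter, a block for the replicate number, leaving out 1 library at a time, a stricter cell filter or gate, doublets kept, Leiden clusters (leidenalg 0.10.2), adjustment over all types and equal weight per type. The fitting code was tested on simulated data with known changes. Other software was igraph 0.11.9, matplotlib 3.10.9, scikit-learn 1.9.0, pandas 2.3.3, numpy 2.4.6, scipy 1.17.1 and Python 3.11.15. Gene positions are from GENCODE M21 (31011 features matched by identifier). Proteins were not analysed here.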

Additional observations from a re-analysis of the deposited data

How the results depend on the processing

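None of the 10 cytokine genes was called within a type by edgeR, and leaving out 1 library gave 0 to 1 calls; DESeq2 gave 1, and edgeR without the filter on low counts gave 7 (of 198 pairs, where 1.8% of all genes were called). The 7 were Csf1 in alveolar type 2 cells, Il1b in type 1 dendritic cells, Il6 in pericytes and venous endothelium, and Lif in CD4 T cells, gamma-delta T cells and peribronchial fibroblasts; most UMIs of both Il6 pairs came from 1 library (51 in control 3 and 31 in p16-DTR 3). Over all cells the count was 0, and 1 with DESeq2. Receptor and decoy calls, 6 by edgeR (0.618% of all genes were called), were 10 with DESeq2 (2.27% of all genes), 16 without the filter (1.8%) and 1 to 7 with 1 library left out. Maturation and release calls, 3 by edgeR, were 7 with DESeq2, 10 without the filter, 5 with Leiden clusters, 1 when adjusted over all types and 1 to 3 with 1 library left out. Response calls, 6 by edgeR, were 24 with DESeq2, 44 without the filter, 2 with Leiden clusters and 0 to 10 with 1 library left out. Of all genes, edgeR called 0.618%, DESeq2 2.27%, edgeR without the filter 1.8% and edgeR with Leiden clusters 0.563%. The share of all genes is not given here for fits that left out 1 library or adjusted over all types, so those counts have no background.

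The log2 ratio of mean CPM with equal weight per cell type was -0.17 for Il1a, -0.018 for Il1rn, -0.23 for Tnf, -0.020 for Csf1, -0.17 for Csf2, 0.21 for Lif and -0.090 for Il18. Each is opposite in sign to the edgeR log2 difference over all cells, which is TMM-scaled and covers more cells. Leiden clusters turned Il6 in adventitial fibroblasts to -0.052 and Csf1 in mesothelium to 0.10, and leaving out basophils turned Csf1 over all cells to -0.084. With 1 library left out, log2 differences that changed sign ran from -0.33 to 0.13 for Il6, -0.10 to 0.19 for Il1a, -0.016 to 0.53 for Csf2 and -0.53 to 0.088 for Lif over all cells. Within a type, those among the differences given above ran from -0.085 to 0.15 for Il6 in adventitial fibroblasts, -0.018 to 0.20 for Il1a in aerocytes, -0.13 to 0.016 for Il1rn in neutrophils, -0.16 to 0.15 for Csf1 in mesothelium, -0.26 to 0.54 for Csf2 in gamma-delta T cells, -0.0033 to 6.70 for Csf2 in alveolar fibroblasts, -0.23 to 0.25 for Il6 in peribronchial fibroblasts, -0.049 to 0.73 for Il6 in basophils and -0.15 to 0.097 for Il18 in alveolar macrophages. Differences not given above also changed sign, for example Csf1 in neutrophils (-0.30 to 0.51) and Lif in alveolar fibroblasts (-0.58 to 0.19). The cause of these changes of sign was not tested. Of 215 other values of 26 cytokine results, 201 kept their direction and side of the threshold, and of 223 values of the 15 list calls 80 lost the call and 0 changed sign. Gamma-delta T cells and venous endothelium had no named cluster, so Tnf, Csf2 and Lif have no cluster value in the first, and of the 6 response calls that of Nfkbiz in venous endothelium could not be made with clusters.

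The labels do not state whether same-numbered libraries are pairs. To look for pairs, each gene's log2 level was taken as its deviation from the mean of its group. Between same-numbered libraries these deviations had correlations of 0.128, -0.016 and 0.126 over all cells. In CD8 T cells, natural killer cells and ciliated cells, each p16-DTR-labelled library correlated best with the control of its own number. Whether libraries of the same number shared a batch was not tested. Of 22 types, only in CD8 T cells were all 3 correlations over 0.1. With the replicate block, 0 cytokine pairs were called within a type and 0 over all cells, 9 receptor pairs, 1 maturation pair and 9 response pairs. The share of all genes called with the block is not given here, so nothing is read from these counts. Of 220 pairs, 113 fell below the filter on low counts. Where such a type had few UMIs, low depth and low expression cannot be told apart. Other such pairs lay in deep types, for example Lif in B cells, at 0.0808 CPM on 8974038 to 15662965 UMIs per library.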
